A study of Mus musculus with 10 samples.

Results

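The olfactomedin genes Olfm1, Olfm2, Olfm3 and Olfm4 were chosen by gene symbol in RNA of the mouse cerebral cortex at postnatal day 18, and make up 4 of the 55487 genes measured. With them came all of their exon bins, 42 of 458337, and all of their introns in the intron table, 9 of 32135. The family as a set was selected on the reads across an Olfm2 intron, named cryptic_fiveprime in the deposited intron table, which were more frequent in Usp7 cKO, so every Olfm2 value of that contrast is given as a description with no test. Olfm1, Olfm3 and Olfm4 entered by family name, though with earlier results of these data known. Olfm1 and Olfm3 were tested, and Olfm4, which lay under the level filter, only in a fit without that filter. The study sequenced ribosome-depleted total RNA from 5 animals labelled Usp7 cKO; Trp53+/- and 5 labelled Usp7 WT; Trp53+/-. Usp7 encodes a deubiquitinase that acts on p53 regulators among other proteins. The knockout came from a Usp7 fl/fl allele crossed to NEX-cre, which recombines in glutamatergic neurons, so the other cells of the tissue keep Usp7, and animals of both groups carry 1 Trp53 allele fewer than wild type. Pairs were matched by litter and sex, though which animals formed a pair is not in the labels used here.

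Olfactomedins are secreted glycoproteins that share a carboxy-terminal olfactomedin domain, which folds as a beta propeller, behind a coiled-coil amino-terminal part. Olfm1, also called noelin or pancortin, is among the most abundant secreted proteins of cortical neurons, and Olfm1, Olfm2 and Olfm3 occur in AMPA receptor complexes at synapses. Olfm1 also binds the Nogo receptor, which restrains axon growth. Alternative first exons give these proteins different amino termini, and an early last exon gives Olfm1 short forms without the olfactomedin domain. Olfm4 is known from neutrophil granules and intestinal crypts rather than from brain.

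The sequences at issue are the exon joins that tell the forms apart. The 20 bases on each side come from the GENCODE M21 transcripts (GRCm38), 5′ to 3′ on the coding strand. Capitals mark the first exon in the joins of the Olfm2 and Olfm1 starts, and the exon that follows exon 3 in the joins of the Olfm1 ends.
Olfm2 distal start (Olfm2-203): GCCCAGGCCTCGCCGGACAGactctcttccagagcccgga
Olfm2 proximal start (Olfm2-204): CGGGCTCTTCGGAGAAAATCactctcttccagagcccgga
Olfm1 distal start (Olfm1-202): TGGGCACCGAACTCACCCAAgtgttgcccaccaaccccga
Olfm1 proximal start (Olfm1-201): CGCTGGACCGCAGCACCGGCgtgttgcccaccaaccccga
Olfm1 short end (Olfm1-203): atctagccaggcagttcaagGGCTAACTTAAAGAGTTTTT
Olfm1 long end (Olfm1-201): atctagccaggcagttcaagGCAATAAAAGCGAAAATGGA
Within each pair of starts, the lower-case second exon is shared, so a read across the join tells the distal from the proximal first exon. The Olfm1 distal join is also that of Olfm1-204 and Olfm1-205, which start farther out than Olfm1-202. Both ends of Olfm1 are joined to the same exon 3.

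The promoters ahead of these alternative starts are shown because the data bear on which start is used. They were taken from RefSeq's table for GRCm38.p6, which holds 8 windows for the 4 genes, from 250 bases before to 50 after each start, and are cut before the first transcribed base in RefSeq or GENCODE M21, whichever comes first. Capitals mark matches that lie whole in these letters, on either strand, to 3 motifs that do not overlap one another here. The TATA box was searched as TATAAA. The cyclic AMP response element was searched as TGACGTCA. The GC box was searched as GGGCGG.
Olfm2 distal promoter, chr9:20746350-20746546, minus strand: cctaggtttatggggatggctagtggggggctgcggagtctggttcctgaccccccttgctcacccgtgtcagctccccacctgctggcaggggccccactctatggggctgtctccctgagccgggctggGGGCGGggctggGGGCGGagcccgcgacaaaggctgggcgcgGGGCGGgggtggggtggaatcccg
Olfm2 proximal promoter, chr9:20727004-20727253, minus strand: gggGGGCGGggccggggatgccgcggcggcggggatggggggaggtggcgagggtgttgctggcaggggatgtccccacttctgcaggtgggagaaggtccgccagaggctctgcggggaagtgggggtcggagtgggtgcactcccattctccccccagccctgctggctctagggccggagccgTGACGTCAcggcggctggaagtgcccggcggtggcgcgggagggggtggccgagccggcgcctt
Olfm1 distal promoter, chr2:28192843-28192991, plus strand: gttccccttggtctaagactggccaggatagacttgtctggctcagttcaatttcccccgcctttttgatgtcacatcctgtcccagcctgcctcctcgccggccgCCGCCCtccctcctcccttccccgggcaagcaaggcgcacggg
Olfm1 proximal promoter, chr2:28205439-28205658, plus strand: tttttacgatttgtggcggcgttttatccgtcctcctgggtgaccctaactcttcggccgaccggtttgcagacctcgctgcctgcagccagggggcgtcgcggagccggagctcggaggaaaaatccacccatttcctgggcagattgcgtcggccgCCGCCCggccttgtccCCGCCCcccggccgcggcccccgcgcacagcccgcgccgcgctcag
The whole Olfm2 proximal window held 1 cyclic AMP response element, 1 TATA box and 1 GC box, whereas the whole Olfm2 distal window held 7 GC boxes, 3 of them in the letters shown, and neither of the other motifs. That TATA box lies across the RefSeq start, partly in the transcribed part that is not printed. Each Olfm1 window held 2 GC boxes and neither of the others. Of all 32851 RefSeq promoter windows of this length, 13.6% held the TATA box, 1.79% the cyclic AMP response element and 35.7% the GC box. These matches describe letters and are no evidence of binding.

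Libraries held 42628526 to 51797145 exon bin counts and 3388310 to 4367711 intron reads. Usp7 itself had 48.3 to 61.9 TPM in the Usp7 WT group against 31.6 to 40.9 in the knockouts, in the direction of the labels. In 2 libraries, Usp7 WT replicate 2 and Usp7 cKO replicate 1, the levels of Xist and Ddx3y went against the labelled sex, and results are given with and without them. By these levels, Usp7 WT replicates 2, 3 and 4 read as male but only replicate 4 of Usp7 cKO. Sex by expression was thus uneven between the groups, which the labelled sex does not show. The library numbers in the file headers run through all Usp7 cKO before all Usp7 WT libraries, so the order of library preparation, if they give it, and genotype cannot be told apart. The 6 cortical markers summed to 1765 to 1954 TPM in the Usp7 WT group and to 1316 to 1509 in the other, with 4 of 6 lower by the test. Of 5 further glutamatergic markers 4 were lower, as were 4 of 5 microglial ones and 1 of 6 GABAergic ones. Called higher were 1 of 5 astrocyte, 1 of 4 oligodendrocyte precursor and 1 of 4 hippocampal markers. None of 5 oligodendrocyte markers moved past the threshold either way, nor did any tested endothelial, striatal or thalamic one. Over all genes tested, 4.67% were called lower and 9.22% higher. In bulk tissue, fewer cells of a type and less RNA per cell cannot be told apart, and the part of these shifts in the values below was not tested.

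The 4 genes differed widely in level. TPM (transcripts per 1000000, a level per gene length) averaged 771 for Olfm1 over the 10 libraries, 239.8 for Olfm2, 11.5 for Olfm3 and 0.271 for Olfm4, and no neighbours in this order overlapped in any library. Olfm1 made up 73.3 to 76.9% of the family's TPM in each library, and Olfm2 22.2 to 25.2%. In GENCODE M21, exon 4 is 220 bp and exon 5 is 107 bp long in the long transcripts Olfm1-201, Olfm2-204 and Olfm3-202 alike, while the exons of Olfm4-203 have other lengths.

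**Figure D1:**
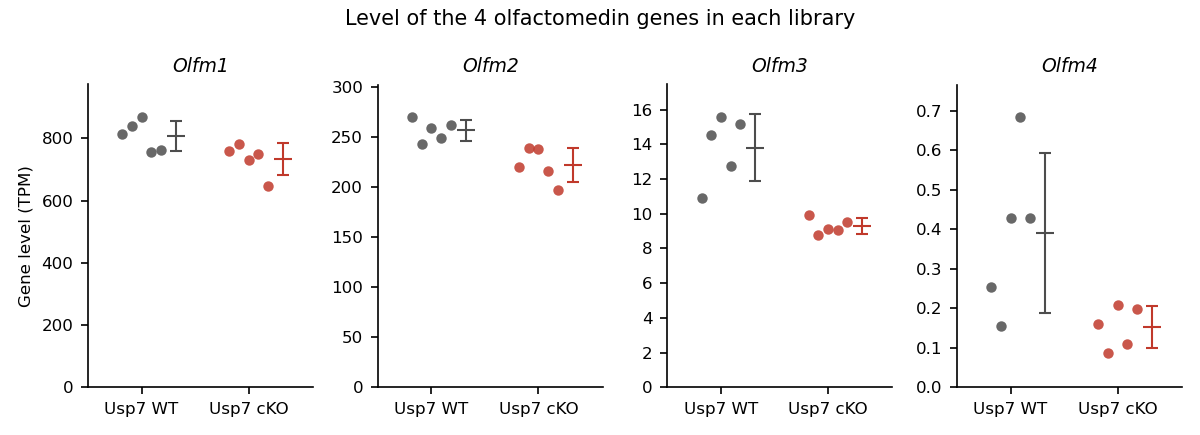
Gene level in TPM of each olfactomedin gene (vertical axis, linear and from 0, a separate scale per gene) in the 5 Usp7 WT and 5 Usp7 cKO libraries; each point is a library and the bar beside it the mean with SD. All 5 Usp7 cKO libraries lie below all Usp7 WT libraries for Olfm2 and Olfm3, and the groups overlap for Olfm1 and Olfm4.

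Olfm2 (chr9:20667690-20746349, minus strand) differed in the choice between a pair of first exons. The distal one, chr9:20746171-20746349, begins Olfm2-203 and the proximal one, chr9:20726646-20726937, begins Olfm2-204. Both hold a start codon, and the predicted proteins of 456 and 478 residues differ in what the first exon encodes, 69 coding bases in the distal and 135 in the proximal form. The deposited intron table labels both introns that leave these exons cryptic_fiveprime, yet each matches an annotated GENCODE M21 intron base for base, so the intron that chose the family joins an annotated alternative first exon. Over the whole table, 638 of 2912 introns with that label (21.9%) were in GENCODE M21. They are therefore called the distal and the proximal start below.

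The distal start took a larger share of Olfm2 in every Usp7 cKO library. Its intron held 17.3, 16.6, 17.5, 23.2 and 20.1% of the reads of the 3-intron cluster in Usp7 WT replicates 1 to 5, and 40.3, 40.2, 36.0, 35.9 and 40.9% in Usp7 cKO replicates 1 to 5. The groups do not overlap, with means of 18.9% ± 2.704 (SD, n = 5) and 38.6% ± 2.48 (SD, n = 5). Of all introns, 3.27% had a share of their cluster that did not overlap between groups. Pooled over libraries, this was 337 of 1774 reads (19.0%, exact Clopper-Pearson 95% interval 17.2 to 20.9) against 527 of 1367 (38.6%, 36.0 to 41.2), intervals that cover counting error only. Without the 2 libraries that went against their sex label the means were 19.5 and 38.2%.

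Reads of the distal start were more numerous in Usp7 cKO and those of the proximal start fewer. In CPM, here reads per 1000000 intron reads of the library, the distal join had 15.8, 12.97, 13.6, 19.5 and 19.1 in Usp7 WT and 26.3, 33.9, 26.5, 24.2 and 26.8 in Usp7 cKO. The proximal join had 73.2, 60.8, 61.5, 62.3 and 72.8 in Usp7 WT and 36.6, 47.2, 44.0, 41.9 and 37.2 in Usp7 cKO. Neither pair of groups overlaps: every Usp7 cKO library was above the others for the distal join and below them for the proximal one. The share of all introns with no overlap in CPM was not computed. The remaining intron of the cluster, chr9:20721107-20726646, is in no GENCODE M21 transcript and held 6 to 18 reads per library.

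The exon bins, counted in the same libraries and so no separate support, showed the same order at smaller shares. By bins the distal share averaged 6.03% in Usp7 WT and 12.9% in Usp7 cKO, against 18.9 and 38.6% by junction reads. The reason for this gap was not tested. The distal first exon took 5.16, 5.57, 5.55, 6.52 and 7.35% of the counts in both first exon bins in Usp7 WT and 12.4, 13.9, 11.03, 10.7 and 16.5% in Usp7 cKO. In level, the distal bin differed by 0.70 on the log2 scale and the proximal bin by -0.51, while the 6 bins from exon 2 to the last exon that all 3 long transcripts use differed by -0.27 to -0.17. The authors' deposited table gives the distal bin a log2 usage change of 0.93 and the proximal bin one of -0.27. One more annotated start, of Olfm2-201 at chr9:20728113-20728229, held only 3 to 11 counts per library. In total, Olfm2 lay at 271, 243, 259.8, 249 and 262 TPM in Usp7 WT and at 221, 239.8, 238, 216 and 197 in Usp7 cKO, a log2 difference of -0.21 with all 5 Usp7 cKO libraries below all Usp7 WT ones. That order was seen for 4.58% of all genes tested.

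**Figure D2:**
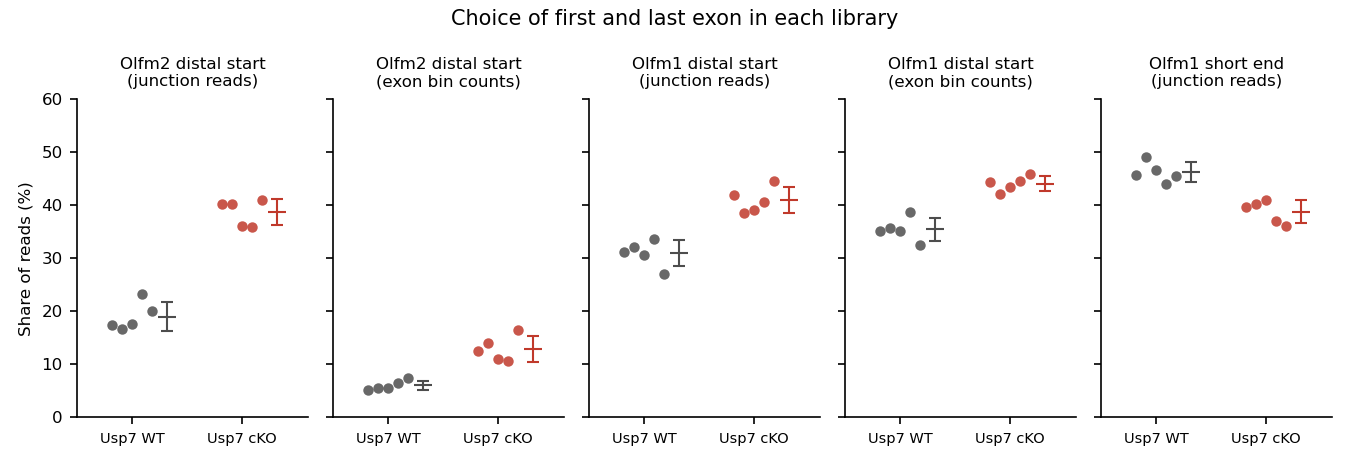
Share of reads (vertical axis, percent, from 0) that used the distal start of Olfm2 and of Olfm1, by junction reads and by first exon bin counts, and the short end of Olfm1, in each library; bars give the mean and SD of 5 libraries. No Usp7 cKO library overlaps the Usp7 WT libraries in any of the 5 measures, and Olfm2 by junction reads goes from 18.9 to 38.6%.

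Olfm1 (chr2:28192992-28230736, plus strand) had a shift of the same direction in the shares of its own starts. The distal first exon, chr2:28193093-28193462, begins Olfm1-202 (457 residues), and the proximal one, chr2:28205659-28206099, begins Olfm1-201 (485 residues) and Olfm1-203. Olfm1-204 (442 residues) and Olfm1-205 start farther out, at chr2:28192992, and their first exon ends at the same base as that of Olfm1-202. The distal join and the distal bin used below do not tell these 3 transcripts apart. The distal join held 31.1, 32.01, 30.6, 33.7 and 27.1% of reads entering exon 2 in Usp7 WT replicates 1 to 5, and 41.8, 38.6, 39.2, 40.5 and 44.6% in Usp7 cKO. The groups do not overlap, at 30.9% ± 2.44 (SD, n = 5) against 40.9% ± 2.40 (SD, n = 5). By first exon bin counts, the distal share was 35.4% ± 2.21 (SD, n = 5) against 44.0% ± 1.37 (SD, n = 5), again with no overlap. Both differences gave an exact two-sided permutation p of 0.00794, the smallest that 252 regroupings of 5 against 5 allow, unadjusted over the 5 shares so tested. Any share that does not overlap between the groups gives this p, so it adds nothing to the lack of overlap. The planned test of usage, edgeR's diffSpliceDGE, called no Olfm1 bin or intron (adjusted p 0.481 for the distal join). The junction shares averaged 30.6 and 40.7% without the 2 libraries against their sex label.

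In number of reads, the proximal start differed and the distal start did not pass the test. The proximal join had 935, 911, 871, 758 and 869 CPM in Usp7 WT and 610.0, 711, 678, 703 and 529 in Usp7 cKO, with no overlap. The distal join had 423, 429, 385, 385 and 323 in Usp7 WT and 439, 447, 436, 478 and 426 in Usp7 cKO, groups that overlap. In level, the proximal join was called lower by edgeR's quasi-likelihood test (log2 -0.45, adjusted p 0.00264) and the distal join was not called (log2 0.17, adjusted p 0.294). Of all introns 2.54% were called lower in level. The proximal first exon bin likewise was lower (log2 -0.47, adjusted p 1.69e-06) and the distal bin was not called (log2 0.05, adjusted p 0.724). Without the 2 libraries that went against their sex label, the proximal join kept its direction (log2 -0.41) at an adjusted p of 0.0530 and the proximal bin was called (log2 -0.41, adjusted p 1.47e-04).

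The early end of Olfm1 took a smaller share in Usp7 cKO. After exon 3 the transcript either runs into a short last exon, chr2:28214101-28214425, or joins exon 4 at chr2:28214609-28214828 and goes on to the long end. The short last exon ends Olfm1-203, whose protein of 153 residues lacks the olfactomedin domain, and Olfm1-205, which has no annotated coding sequence. Reads of the short join do not tell these apart. The short end took 45.7, 49.1, 46.7, 43.9 and 45.5% of these joins in Usp7 WT and 39.6, 40.1, 41.0, 37.1 and 36.1% in Usp7 cKO. No library of one group reaches the other, at 46.2% ± 1.91 (SD, n = 5) against 38.8% ± 2.09 (SD, n = 5). The exact permutation p of 0.00794 follows from that lack of overlap. The planned test, diffSpliceDGE, called neither the short join nor the short last exon bin (adjusted p 0.112 for the bin). The short join was called lower in level by edgeR (log2 -0.45, adjusted p 0.0203), with 235 ± 31.6 against 175 ± 21.6 CPM. The long join had 272 ± 15.9 and 276 ± 27.0 CPM, with a log2 level change of -0.01 that was not called (adjusted p 0.972). Without the 2 libraries against their sex label, the short join was at log2 -0.37 with an adjusted p of 0.0946.

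**Figure D3:**
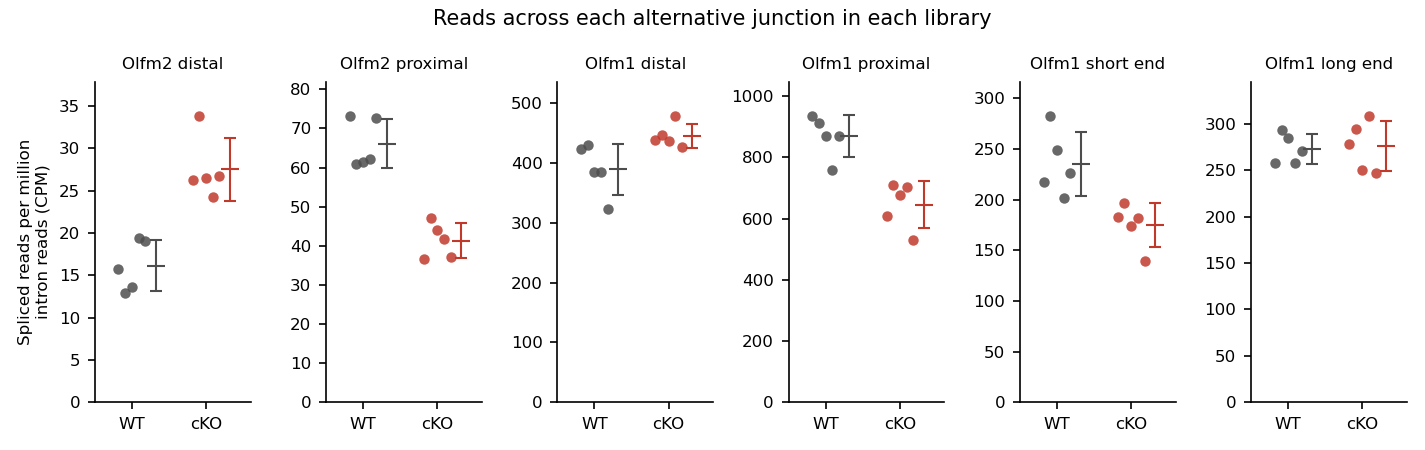
CPM, spliced reads per 1000000 intron reads (vertical axis, linear and from 0, a separate scale per panel) across each alternative join of Olfm2 and Olfm1 in the 5 Usp7 WT and 5 Usp7 cKO libraries, with mean and SD. The groups separate for both Olfm2 joins, for the proximal start and for the short end of Olfm1, and overlap for the distal start and the long end of Olfm1.

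The 10 Olfm1 exon bins traced both choices along the gene. In level, 5 of 10 were called lower by edgeR's quasi-likelihood test on each bin and none higher, where 7.31% of all bins were called lower. They were the proximal first exon, exons 2 and 3 (log2 -0.29 and -0.28), the short last exon (log2 -0.50, adjusted p 4.29e-05) and the outer edge of the distal start, chr2:28192992-28193092 (log2 -0.47, adjusted p 0.00385). Among annotated transcripts, only Olfm1-204 and Olfm1-205 hold that edge. Exon 4, exon 5 and the long last exon, which only the long forms use, had log2 changes of -0.10 to -0.01, and the main distal bin had 0.05. Without the 2 libraries against their sex label, 4 of 10 were called lower, against 5.02% of all bins, with the outer edge no longer among them (adjusted p 0.0745).

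Different tests of usage within the gene gave different calls for Olfm1. By edgeR's diffSpliceDGE, which sets each feature against the rest of its gene or cluster, 0 of 10 Olfm1 bins and 0 of 6 introns were called, where 0.43% of all bins and 0.117% of all introns were. At an unadjusted p under 0.05 there were 4 of 10 bins and 1 of 6 introns, where 4.92% of all bins and 3.52% of all introns were. The smallest p of each was that of the short last exon (-0.22, adjusted p 0.112) and the distal join (0.28, adjusted p 0.481). With limma on the log2 odds of each share, chosen after these values had been seen, 4 bins and 2 introns were called, against 0.608% of all bins and 0.244% of all introns. Its value for the distal join was 0.63 ± 0.0955 (SE) on the log2 odds scale (adjusted p 0.0399). The authors' deposited table calls 3 of 10 Olfm1 bins, where it calls 0.573% of all bins that have an adjusted p. In the authors' deposited table these are the proximal start (log2 -0.28, adjusted p 4.05e-06), the short end (log2 -0.31, adjusted p 0.00706) and the distal start (log2 0.23, adjusted p 0.0318). Shares that did not overlap between groups were seen for 4 of 6 Olfm1 introns and 4 of 10 bins, against 3.27% of all introns and 1.64% of all bins, and the 4 introns are 2 pairs that share their reads.

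An acceptor inside exon 3, chr2:28208227-28212557, in no GENCODE M21 transcript, took 0.797% ± 0.232 (SD, n = 5) of reads leaving exon 2 in Usp7 WT and 0.876% ± 0.270 (SD, n = 5) in Usp7 cKO, an exact permutation p of 0.627. Olfm1 as a whole lay at 813, 839.9, 869, 757 and 764 TPM in Usp7 WT and at 758, 781, 729.5, 751 and 646 in Usp7 cKO. The groups overlap, with 3 of 5 Usp7 cKO libraries below every Usp7 WT library. By limma the difference was -0.14 ± 0.0586 (SE) on the log2(TPM + 0.5) scale with an adjusted p of 0.142, and it was called when bin counts were summed and tested by edgeR (log2 -0.21, adjusted p 0.0266) or DESeq2 (log2 -0.21, adjusted p 0.0177).

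**Figure D4:**
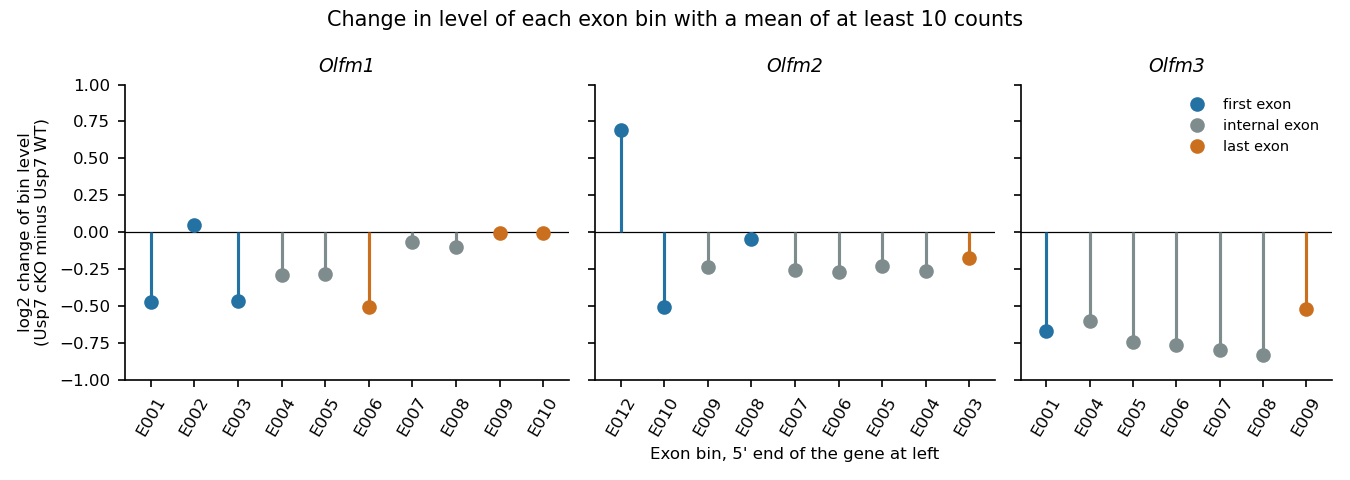
Log2 change in level (vertical axis, Usp7 cKO minus Usp7 WT) of each exon bin of Olfm1, Olfm2 and Olfm3 with a mean of at least 10 counts, in order from the 5′ end of the gene, coloured by first, internal and last exon. Bin E012 of Olfm2, the distal start, stands above 0 at 0.70, the bins of Olfm1 that the long forms alone use lie near 0, and all 7 bins of Olfm3 lie between -0.83 and -0.52.

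Olfm3 (chr3:114904078-115125722, plus strand), also called optimedin, fell as a whole gene. It lay at 10.9, 14.5, 15.6, 12.7 and 15.1 TPM in Usp7 WT and at 9.93, 8.79, 9.12, 9.05 and 9.54 in Usp7 cKO. Every Usp7 cKO library was below every Usp7 WT library, which 4.58% of all genes tested showed. By limma the change was -0.54 ± 0.101 (SE) on the log2(TPM + 0.5) scale, with an adjusted p of 0.00644, and 4.67% of the 27580 genes tested were called lower. Without the 2 libraries against their sex label it was -0.52 (adjusted p 0.0427). With Xist in place of labelled sex as the covariate, limma gave -0.51 (adjusted p 0.0156).

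All 7 Olfm3 bins that passed the count filter were called lower in level, by -0.83 to -0.52 on the log2 scale (largest adjusted p 0.00654). Of all bins, 7.31% were called lower. The 7 bins count reads of the gene called lower above, and so are no separate support. Of the 7, 6 were called without the 2 libraries against their sex label, where 5.02% of all bins were. Within the gene, 0 of 7 were called by diffSpliceDGE, 0 at an unadjusted p under 0.05, 0 by limma on log2 odds and 0 in the authors' deposited table. In the same order, the shares over all bins were 0.43, 4.92, 0.608 and, of bins with an adjusted p, 0.573%. The distal first exon, chr3:114904078-114904551, which begins Olfm3-202, took 92.7% ± 1.97 (SD, n = 5) of counts in the 3 first exon bins in Usp7 WT and 91.9% ± 2.43 (SD, n = 5) in Usp7 cKO. This difference of -0.73 percentage points gave an exact permutation p of 0.587. The other 2 starts held 0 to 10 counts per library, too few to show a shift among them. No Olfm3 or Olfm4 intron was among those of the intron table, so junction reads were not analysed for them here.

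Olfm4 (chr14:79984081-80023139, plus strand) was near the limit of detection. Its level was 0.253, 0.155, 0.428, 0.684 and 0.428 TPM in Usp7 WT and 0.161, 0.0860, 0.208, 0.109 and 0.199 in Usp7 cKO, under the filter of a mean of 0.5 TPM, and the groups overlap. Its 10 bins held 0 to 6 counts per library, and 2 of them none in any library. With no filter, limma gave -0.42 on the log2(TPM + 0.5) scale (adjusted p 0.173). The 7 neutrophil markers together had 0.320 to 1.116 TPM in the Usp7 WT group and 1.33 to 2.89 in the knockouts. None of the 7 passed the filter, and 4 lay under 0.5 TPM in every library. Whether these low values bear on Olfm4 was not tested.

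Of 9 other genes with an olfactomedin domain, 1 was called higher and 2 lower, where 9.22% of all genes were called higher and 4.67% lower. The median over the 9 was 0.15 on the log2 scale, against 0.06 over all genes tested. Gldn, which encodes gliomedin of the nodes of Ranvier in peripheral nerve, rose from 1.003 ± 0.162 to 3.73 ± 0.447 TPM (SD, n = 5 each; log2 1.49, limma adjusted p 3.91e-05). Olfml3, which encodes a secreted matrix protein found in microglia among other cells, fell from 7.63 ± 1.04 to 5.24 ± 0.392 TPM (log2 -0.49, limma adjusted p 0.0148). For both, no library of one group reached the other, which follows largely from naming the genes with the smallest p. The order of Olfml3, with every Usp7 cKO library below every Usp7 WT library, was seen in 4.58% of all genes tested. The share with the reverse order, that of Gldn, was not computed. Adgrl1, one of the latrophilins, adhesion receptors of synapses, fell from 397 ± 39.1 to 343 ± 9.22 TPM (log2 -0.21, limma adjusted p 0.0416), a call that was lost when any single library other than Usp7 WT replicate 2 or 4 was left out (adjusted p up to 0.0984 over all its alternatives). The other latrophilins, Adgrl2 (log2 0.15, adjusted p 0.125 by limma) and Adgrl3 (log2 -0.11, adjusted p 0.152), and Myoc (log2 0.55, adjusted p 0.1996), which encodes myocilin, were not called by limma. Adgrl3 was called lower by edgeR and DESeq2 on summed bin counts and by limma after rescaling by median ratios (adjusted p down to 0.00351 and up to 0.279 over its alternatives).

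The AMPA receptor complex, in which Olfm1 to Olfm3 take part, had more members lower than higher. Of 28 genes, 3 were called higher and 7 lower, with a median of -0.13 on the log2 scale, against 9.22% of all genes higher, 4.67% lower and a median of 0.06. After rescaling TPM by median ratios, which moved the median of all genes from 0.06 to 0.01, 3 were called higher and 14 lower, against 9.59 and 10.9% of all genes. Leaving out the 2 libraries against their sex label, 2 were called higher and 5 lower, against 4.75 and 3.14% of all genes. Gria3, a pore subunit, fell from 86.5 ± 5.74 to 65.8 ± 2.05 TPM (log2 -0.39, limma adjusted p 9.28e-04). Nrn1, a small membrane-anchored neuritin of the complex, fell from 158 ± 12.3 to 105 ± 12.5 TPM (log2 -0.58, limma adjusted p 0.00215). Dlg4, which encodes the scaffold PSD-95, fell from 355 ± 19.8 to 286 ± 15.3 TPM (log2 -0.31, limma adjusted p 0.00323), and Prrt1 from 325 ± 14.2 to 280.0 ± 12.95 TPM (log2 -0.21, adjusted p 0.0119). In the other direction, the auxiliary subunits Cacng5 (8.78 ± 1.17 to 13.8 ± 1.83 TPM, log2 0.62, limma adjusted p 0.00589) and Shisa6 (11.1 ± 1.08 to 16.2 ± 2.79 TPM, log2 0.52, limma adjusted p 0.0106) rose. For each of these 6 genes the 5 libraries of one group did not overlap those of the other. They were named for the smallest p of the list, so this follows largely from their choice. Of all genes tested, 4.58% had every Usp7 cKO library below every Usp7 WT library, and the share with the reverse order was not computed.

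The Nogo receptor pathway, with which Olfm1 interacts, had 1 of 9 genes called higher, against 9.22% of all genes, and 3 lower, against 4.67%, with a median of -0.15 on the log2 scale. Rtn4, which encodes the Nogo ligand, fell from 213 ± 14.2 to 171 ± 5.54 TPM (log2 -0.32, limma adjusted p 0.00233). The coreceptor Ngfr, the p75 neurotrophin receptor, rose from 1.20 ± 0.124 to 3.40 ± 0.583 TPM (log2 1.19, limma adjusted p 3.77e-04). The coreceptor Lingo1 fell from 549.5 ± 22.4 to 456 ± 49.0 TPM (log2 -0.27, adjusted p 0.0279 by limma) and the receptor Rtn4rl1 from 79.3 ± 4.98 to 63.8 ± 7.67 TPM (log2 -0.32, adjusted p 0.0350 by limma). The Lingo1 call was lost without any 1 of Usp7 WT replicates 1, 2 and 3 or Usp7 cKO replicates 1, 3 and 4 (adjusted p up to 0.106 over its alternatives). The Rtn4rl1 call was lost without any 1 of Usp7 WT replicates 1, 3 and 5 or Usp7 cKO replicates 1, 3 and 4 (up to 0.0906). Leaving out the 2 libraries against their sex label, 1 gene of the list was called lower. Tnfrsf19, another coreceptor (log2 0.24, limma adjusted p 0.0946), and the ligand Omg (log2 -0.15, adjusted p 0.176) were not called by limma. Both were called by edgeR and DESeq2 on summed bin counts, Tnfrsf19 higher (adjusted p 0.0320 to 0.362 over its alternatives) and Omg lower (0.0370 to 0.411), and Omg also by limma without Usp7 WT replicate 4. Rtn4r, the gene of the Nogo receptor, was singled out because Olfm1 binds its product, and had 201 ± 8.51 and 182 ± 23.8 TPM, with an adjusted p of 0.290 by limma.

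**Figure D5:**
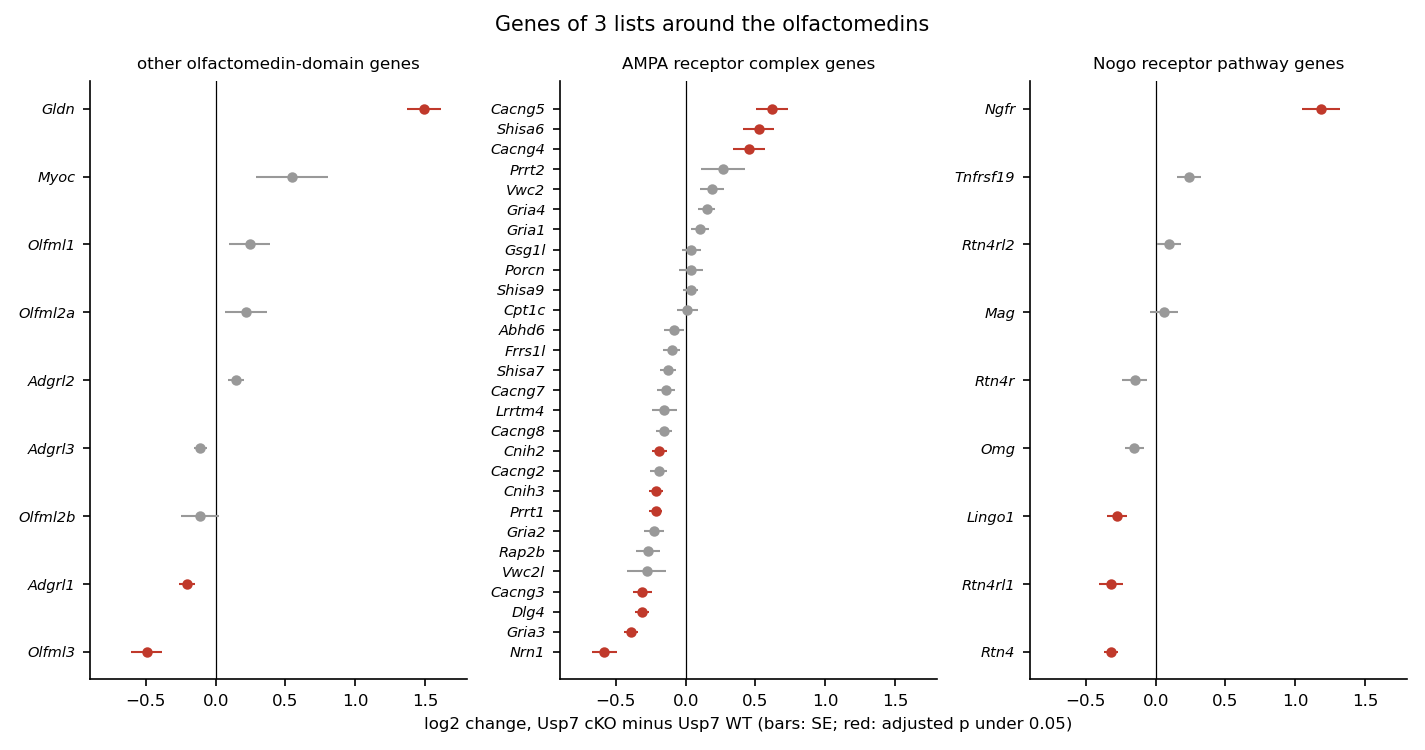
Log2 change of each tested gene (horizontal axis, Usp7 cKO minus Usp7 WT on the log2(TPM + 0.5) scale, bars SE) in the lists of other olfactomedin-domain genes, AMPA receptor complex genes and Nogo receptor pathway genes, with red for an adjusted p under 0.05. Gldn at 1.49 and Ngfr at 1.19 lie farthest to the right, and Nrn1 at -0.58 farthest to the left.

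Within genotypes, the olfactomedin genes did not follow one another closely. Over the 10 libraries, deviations from the genotype mean correlated at r = 0.54 between Olfm1 and Olfm2, at 0.07 between Olfm1 and Olfm3 and at -0.31 between Olfm2 and Olfm3. These are descriptions over points that share library and depth. Among 15259 other genes of at least 1 TPM on average, those closest to Olfm1 were Dkkl1, Hapln4 and Ywhah (r of 0.96, 0.95 and 0.92). Closest to Olfm2 were Lamp5, Tmem200c and AC131692.1 (r of 0.94, 0.94 and 0.93), and closest to Olfm3 were Ccnc, Ska2 and Manea (r of 0.96, 0.95 and 0.94). With so many candidates and 10 points, high values arise among some genes in any case.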

How the data were processed

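The deposited gene table gives TPM per gene, made by the authors. The exon table gives raw read counts of DEXSeq counting bins, with the authors' DEXSeq log2 fold change, p-value and adjusted p-value per bin, per the file headers. The intron table holds, per the file headers, leafcutter's raw counts of reads that span each intron. Named without a role in the submitters' processing notes are STAR, Subread, featureCounts, SAMtools 1.10 and the build GRCm38. Neither the counting strand nor the lengths behind TPM are stated in these sources, so reads of overlapping genes cannot be told apart. All intron counts of replicate 1 of Usp7 WT were even as deposited, and they were halved.

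Gene levels were tested with limma 3.58.1 (R 4.3.3) on log2(TPM + 0.5), using a robust mean-variance trend and genes averaging at least 0.5 TPM, and fold changes on that scale understate those of low genes. Bins (mean count of at least 10) and introns (at least 5) were tested with edgeR 4.0.16, glmQLFit with TMM: diffSpliceDGE for usage within a gene or cluster, and glmQLFTest for level, the latter chosen after the data had been seen. Labelled sex was the covariate in the limma, edgeR and DESeq2 fits, apart from alternatives without it or with Xist in its place. P-values were two-sided and adjusted by the Benjamini-Hochberg method over the whole table, at a threshold of 0.05. Each library is an animal of its own, as the labels' design describes. Shares for single choices were compared by exact permutation over libraries, with no covariate and no adjustment, a comparison that was not among the planned tests. DESeq2 1.42.0, other filters, pseudocounts (0.1 and 1) and scalings, and leaving out libraries were alternatives.

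Genes named are the members, up to 6 genes with the smallest p of each list, and for each member the 3 genes closest in within-genotype deviations. Gene symbols of the Gm or Rik form were left out of the last. The members and the lists were chosen with earlier results of these data known. No genome or protein sequence was used here.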

Additional observations from a re-analysis of the deposited data

Results flagged for a closer look

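The Olfm2 distal join in Usp7 cKO replicate 2 stood apart from the other 4 Usp7 cKO libraries, at 33.9 CPM (reads per 1000000 intron reads) against 24.2 to 26.8. It was the only one of 38 groups of 5 values, over gene levels and shares, whose highest or lowest library lay that far from the rest, and chance alone gives about 1 in 20. The distal share of Olfm2 in that library, 40.2%, lay within the range of the others.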

How the results depend on the processing

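Of 254 values recomputed under alternatives none reversed, though the 81 counts of calls among them have no direction to reverse. Many alternatives left out 1 library and so share most of their data. For tested values of Olfm1 and Olfm3, 86 of 91 alternatives kept the side of the threshold. For Olfm2 and Olfm4, which were not tested in the main fits, 81 of 82 moved by less than the spread between libraries. Counts of calls stayed within 1.5 times in 72 of 81, though calls were gained or lost in some of these. The Olfm3 gene level stayed called in all 21 of its fits, between -0.68 and -0.49 on the log2 scale (adjusted p 2.12e-11 to 0.0427). The Olfm1 gene level became called on summed bin counts: -0.21 by edgeR with TMM (adjusted p 0.0266), -0.21 by edgeR with RLE (adjusted p 0.0256) and -0.21 by DESeq2 (adjusted p 0.0177). Its other fits gave adjusted p of 0.0701 to 0.336. By limma on log2 odds, chosen after the data had been seen, 4 Olfm1 bins and 2 Olfm1 introns were called where edgeR called 0 of each, with -0.35 for the short last exon (adjusted p 0.0151) and 0.63 for the distal join (adjusted p 0.0399). The Olfm2 share difference stayed between 18.7 and 20.8 percentage points. The Olfm4 difference was -0.88 with a pseudocount of 0.1, against -0.42. With median-ratio rescaling, 17 AMPA receptor complex genes were called in place of 10. Of the Nogo receptor pathway 4 genes were called, and 2 without the 2 libraries against their sex label. In each case the cause was not tested.

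Leaving out 1 library at a time, the Olfm1 gene level ranged from -0.18 to -0.10, Olfm3 from -0.61 to -0.49, Olfm2 from -0.24 to -0.16 and Olfm4 from -0.52 to -0.31. The calls ranged from 0 to 0 for bins and introns, from 7 to 11 AMPA receptor complex genes, from 2 to 3 other olfactomedin-domain genes and from 2 to 5 Nogo receptor pathway genes. The Nogo count was 2 without Usp7 WT replicate 1 or 3, or without Usp7 cKO replicate 1, 3 or 4. No paired analysis was possible because no label names the pairs. The alternatives planned for Olfm3 introns could not be run, as no Olfm3 intron was among those analysed. Depth limits Olfm4 and the minor starts of Olfm3, with at most 6 and 10 counts per bin.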
